A study of Mus musculus with 12 samples.

Results

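Nearly all of the genes described here encode subunits of the oxidative phosphorylation system of mitochondria. They were chosen by symbol: all genes of the array annotation named *Nduf* with a letter a, b, c, s or v and a number, *Sdha* to *Sdhd*, *Uqcr*, *Cox4* to *Cox8* with a letter, or *Atp5*, without *Ndufa4l2*. This gave 78 of 19057 genes, with 118 probes, and where a gene had several probes the one of highest mean signal stood for it. They comprise 34 genes of complex I, 4 of complex II, 7 of complex III, 17 of complex IV and 16 of complex V. By its name *Cox7a2l*, a factor of respiratory supercomplexes, was counted with complex IV, and *Ndufs5-ps*, annotated as a pseudogene copy, with complex I. The rule used names and mean signals, and no comparison between groups.

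Transcripts were profiled in 3 groups of 4 samples, each on 1 array of the Illumina MouseWG-6 v2.0 design (12 arrays). The tumors were medulloblastomas (MBs) of the Sonic hedgehog class, dissected from cerebella of symptomatic mice that carried 1 mutant *Ptch* allele, either with the X-linked Norrin gene disrupted in the germ line by a cassette containing lacZ (*NdpKO;Ptch+/-*) or with *Ndp* intact (*Ptch+/-*). The untransformed cells were granule neuron progenitors (GNPs), the cells from which these tumors arise, taken from wild-type cerebella at postnatal day 6 by density gradient and pre-plating. The labels give the *NdpKO;Ptch+/-* mice a mixed strain background and the other 2 groups C57Bl/6. The study's methods state instead that controls came from the breeding cohort of the compound mutants, to match backgrounds. They describe the *NdpKO* animals as males and the *Ptch+/-* animals as of both sexes. Strain, as labelled, and sex therefore cannot be told apart from genotype, and tumor tissue cannot be told apart from purified cells in either comparison with GNPs. The labels give no age for the tumor-bearing animals, which were taken when symptomatic, so age at dissection may differ with genotype and cannot be told apart from it. The records do not say whether every tumor is from its own mouse, so p-values reflect only the spread among the samples at hand, which may be technical.

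Complex I takes electrons from NADH and complex II from succinate, and both pass them to ubiquinone. Complex III hands them to cytochrome c and complex IV to oxygen, and complexes I, III and IV pump protons whose return through complex V, the ATP synthase, drives the synthesis of ATP. The subunits named here are encoded in the nucleus, whereas a few core subunits are encoded in mitochondrial DNA and are not among these genes. Proliferating GNPs and the tumors derived from them are known for aerobic glycolysis under Sonic hedgehog signalling.

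Signals are log2 values after background correction and quantile normalization, and 4.5 was taken as the limit of background. By this limit 66 of the 78 genes were above background on all 12 arrays, 3 on some arrays (*Atp5k*, *Atp5md* and *Cox7a1*) and 9 on none. The 9 include 6 tissue isoforms of complex IV (*Cox4i2*, *Cox6a2*, *Cox6b2*, *Cox7b2*, *Cox8b* and *Cox8c*), while the ubiquitous forms *Cox4i1*, *Cox6a1* and *Cox6b1* had group means between 13.35 and 13.97. The other 3 were *Ndufs1*, *Sdha* and *Uqcrfs1*, which encode catalytic subunits that respiring cells need, so a probe at background here is no evidence that the gene was silent. On all 12 arrays the *Ndp* probe also lay under 4.5 and could not check the genotypes. Among the defining markers of the granule lineage, *Zic1* was bright in all 3 groups, while *Atoh1*, *Barhl2* and *Zic5* were under background on every array. Within groups, arrays correlated over all probes with a Pearson's r of 0.984 to 0.996, and no 2 arrays held identical values.

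*NdpKO;Ptch+/-* and *Ptch+/-* MBs were compared to see how loss of Norrin changes the tumor transcriptome. Most subunit genes of all 5 complexes had slightly higher signals in *NdpKO;Ptch+/-* MBs, and 4 passed the test one gene at a time: *Ndufa10* and *Ndufc1* of complex I, and *Atp5d* and *Atp5pb* of complex V. No member was called lower by limma. At an unadjusted p under 0.05 (limma), 41 of the 78 members were higher and 3 lower, against 1624 and 1508 of all 19057 genes. Among genes with a mean signal of at least 8, 38 of 61 members were higher and 3 lower, against 891 and 732 of 5615 genes. The median log2 fold change over the 78 genes was 0.22 (interquartile range 0.13 to 0.31), with 67 genes above 0 and 11 below, against a median of 0.00 over all 19057 genes.

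The 4 calls (limma, adjusted p under 0.05 by Benjamini-Hochberg over all probes) were 5.13% of the members, where 0.808% of all genes were called higher and 1.26% lower. Among genes with a mean signal of at least 8, where 61 of the members lie, 1.59% were called higher and 2.33% lower. In this bright class the *NdpKO;Ptch+/-* arrays lay wholly above the *Ptch+/-* arrays in 21 of 61 members (34.4%) and wholly below in 1 (1.64%), against 7.96% and 7.09% of all genes of that class. Over all 78 genes the groups were apart in this direction in 22: *Ndufa8*, *Ndufa10*, *Ndufb6*, *Ndufb7*, *Ndufb8*, *Ndufc1*, *Ndufs4*, *Ndufs8* and *Ndufs5-ps* in complex I, *Uqcr11*, *Uqcrc1* and *Uqcrc2* in complex III, *Cox4i1*, *Cox5a*, *Cox6b1* and *Cox7a1* in complex IV, and *Atp5c1*, *Atp5d*, *Atp5g2*, *Atp5g3*, *Atp5j2* and *Atp5pb* in complex V. The median of the bright members was 0.22, against 0.03 for all bright genes. Members and genes of like signal differed in each band: the median was 0.30 against 0.03 at a signal of 8 to 10, 0.29 against 0.03 at 10 to 12, 0.21 against 0.03 at 12 to 14, and 0.17 against 0.03 at 14 and above. These medians describe the list and carry no test. The median SD of a gene between replicates was 0.15 over the members, against 0.19 over bright genes, in *NdpKO;Ptch+/-* MBs, 0.14 against 0.17 in *Ptch+/-* MBs, and 0.09 against 0.12 in GNPs.

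**Figure D1:**
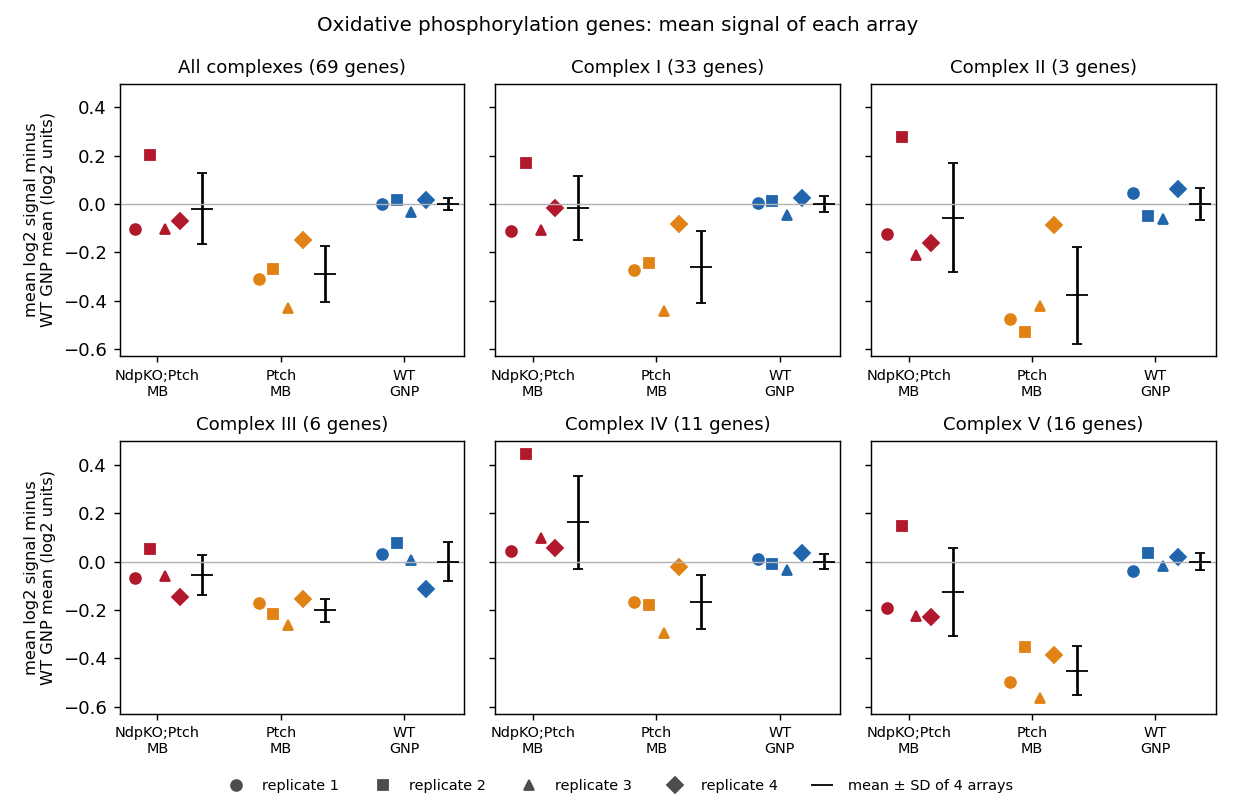
Mean log2 signal of the members above background on at least 1 array, minus the GNP mean of each gene, for all complexes and for each complex. Points are arrays, bars the mean ± SD of 4 arrays. The *NdpKO;Ptch+/-* arrays run from -0.103 to 0.203 over all 69 genes, the *Ptch+/-* arrays from -0.431 to -0.149.

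Taken array by array, the mean over the 69 genes above background was -0.103, 0.203, -0.103 and -0.072 in *NdpKO;Ptch+/-* MBs and -0.310, -0.270, -0.431 and -0.149 in *Ptch+/-* MBs, in log2 units relative to the GNP mean. Replicate 2 of the *NdpKO;Ptch+/-* MBs stood above its group and replicate 3 of the *Ptch+/-* MBs was the lowest array of all, and the 2 groups did not overlap. By complex, the array means of the 2 groups were apart in complexes III, IV and V and overlapped in complexes I and II. In complex III they were only just apart, with the lowest *NdpKO;Ptch+/-* array at -0.145 and the highest *Ptch+/-* array at -0.154. The lowest *NdpKO;Ptch+/-* array was at -0.113 in complex I and -0.213 in complex II, and the highest *Ptch+/-* array at -0.082 and -0.087. Without replicate 2 of the *NdpKO;Ptch+/-* MBs the median over the 78 genes was 0.15, 1 gene was called higher (*Ndufa10*) and 1 lower (*Ndufa4*). The same array was the highest of its group in the summed signal of striated muscle markers, at 8.23 on a log2 scale against 7.48 to 7.56 in the other *NdpKO;Ptch+/-* MBs and 7.47 to 7.48 in *Ptch+/-* MBs, with 8 of the 10 markers, *Ckm* and *Myh4* among them, under background on all arrays. The part of muscle RNA in the result was not tested. In whole tumors a change in the share of a cell type and a change in RNA per cell cannot be told apart.

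*Ndufa10*, an accessory subunit of the membrane arm of complex I, had the smallest p of the members. Its signals were 12.54, 12.65, 12.51 and 12.62 in *NdpKO;Ptch+/-* MBs, against 12.28, 12.31, 12.32 and 12.33 in *Ptch+/-* MBs. The *Ptch+/-* arrays spanned a very narrow range, and every *NdpKO;Ptch+/-* array lay above it (log2 fold change of 0.27 ± 0.04 (SE), adjusted p = 0.0124, or 1.21-fold). *Ndufc1*, a small subunit of the same arm, had 13.04, 13.29, 13.17 and 13.25 in *NdpKO;Ptch+/-* MBs, against 12.85, 12.80, 12.66 and 12.96 in *Ptch+/-* MBs. The groups were again apart (log2 fold change of 0.37 ± 0.07 (SE), adjusted p = 0.0404), and a second probe gave 0.38 with an adjusted p of 0.255 (limma).

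*Atp5pb*, subunit b of the peripheral stalk that holds the ATP synthase head still, had signals of 11.69, 12.15, 11.92 and 11.97 in *NdpKO;Ptch+/-* MBs, against 11.59, 11.35, 11.35 and 11.38 in *Ptch+/-* MBs. The nearest arrays of the 2 groups were 11.69 and 11.59, with no overlap (log2 fold change of 0.51 ± 0.09 (SE), adjusted p = 0.0313, 1.43-fold). A second bright probe of the gene had a log2 fold change of 0.33 (limma, adjusted p = 0.136). *Atp5d*, the delta subunit of the rotating central stalk, had 11.68, 11.71, 11.46 and 11.72 in *NdpKO;Ptch+/-* MBs, against 11.16, 11.30, 11.06 and 11.37 in *Ptch+/-* MBs. Here too the groups did not overlap (log2 fold change of 0.42 ± 0.08 (SE), adjusted p = 0.0357). Of the 4 genes, *Ndufa10* kept an adjusted p under 0.05 when any of the 12 arrays was left out, but not when dim probes were left out, whereas *Atp5pb*, *Atp5d* and *Ndufc1* each kept it in 2 of those 12 fits and all 3 with dim probes left out. With the mean of all probes of a gene *Atp5pb* and *Ndufc1* did not pass, and none of the 4 passed in a fit on the 8 tumors alone.

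The promoters of these 4 genes are shown because they are the members that passed an adjusted p under 0.05 between the tumor genotypes. They run from 250 bases before to 50 bases after the annotated start, 5′ to 3′, from RefSeq on GRCm38.p6, in lower case with any match to the core letters of NRF1, ETS factors or YY1 in capitals.
Ndufa10, chr1:92473709-92474008, minus strand: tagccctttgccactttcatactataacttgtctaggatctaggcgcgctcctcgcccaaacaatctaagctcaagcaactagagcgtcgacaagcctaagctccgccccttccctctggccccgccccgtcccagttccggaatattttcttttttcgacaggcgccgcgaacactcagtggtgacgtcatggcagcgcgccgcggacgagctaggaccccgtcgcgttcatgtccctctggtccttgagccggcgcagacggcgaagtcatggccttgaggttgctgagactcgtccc
Ndufc1, chr3:51408906-51409205, minus strand: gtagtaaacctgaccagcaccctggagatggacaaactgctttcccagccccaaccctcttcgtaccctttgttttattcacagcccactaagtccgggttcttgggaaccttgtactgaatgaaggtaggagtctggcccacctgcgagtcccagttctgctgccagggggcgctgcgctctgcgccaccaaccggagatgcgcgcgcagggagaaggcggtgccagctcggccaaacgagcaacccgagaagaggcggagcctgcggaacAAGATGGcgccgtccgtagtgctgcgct
Atp5d, chr10:80142025-80142324, plus strand: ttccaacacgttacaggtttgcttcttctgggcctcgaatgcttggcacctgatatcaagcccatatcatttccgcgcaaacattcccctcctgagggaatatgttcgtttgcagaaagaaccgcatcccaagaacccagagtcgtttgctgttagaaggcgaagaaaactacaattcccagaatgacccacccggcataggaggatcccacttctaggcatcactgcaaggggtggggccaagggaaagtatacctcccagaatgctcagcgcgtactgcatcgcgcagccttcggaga
Atp5pb, chr3:105959214-105959513, minus strand: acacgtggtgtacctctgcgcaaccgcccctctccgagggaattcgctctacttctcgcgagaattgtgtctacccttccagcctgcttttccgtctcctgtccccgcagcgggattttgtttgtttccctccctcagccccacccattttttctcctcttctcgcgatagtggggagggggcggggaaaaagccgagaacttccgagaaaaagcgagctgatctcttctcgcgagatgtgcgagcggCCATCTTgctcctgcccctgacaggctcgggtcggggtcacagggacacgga

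RefSeq promoters matched 64 of the 78 members, leaving *Atp5a1*, *Atp5mpl*, *Cox4i1*, *Cox4i2*, *Cox6a2*, *Cox6c*, *Cox8c*, *Ndufa2*, *Ndufb9*, *Ndufs1*, *Ndufs5-ps*, *Sdhc*, *Uqcrc2* and *Uqcrq*. NRF1, ETS factors such as GABPA and YY1 are known regulators of nuclear genes for respiratory subunits. Core letters of the 3 were searched on both strands. GCGCATGC, for NRF1, was present in 10 of 64 promoters (15.6%), against 2.80% of the 27025 promoters in the table. CCGGAAG, for ETS factors, was present in 15 (23.4%), against 9.12%. AAGATGG, for YY1, was present in 9 (14.1%), against 6.48%, and can share its first 3 letters with the end of CCGGAAG. In all, 29 member promoters (45.3%) held at least 1 of the 3, against 17.0% of the table, which also holds noncoding genes. Of the promoters shown, those of *Atp5pb* and *Ndufc1* each held 1 match to the YY1 letters, across the annotated start in *Atp5pb* and after it in *Ndufc1*, and those of *Ndufa10* and *Atp5d* held none of the 3. A match is a run of letters, and binding was not measured.

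Within complex I the medians differed by part of the molecule. All 18 measured genes of the membrane arm had positive log2 fold changes in *NdpKO;Ptch+/-* against *Ptch+/-* MBs (median 0.30). So did 11 of the 14 measured genes of the matrix arm (median 0.15), which takes up NADH and carries electrons to ubiquinone. The matrix arm was the brighter one, with a mean signal of 12.4 in *Ptch+/-* MBs against 10.6 in the membrane arm. Medians of members fell with signal in this comparison, from 0.30 at 8 to 10 to 0.17 at 14 and above. Arm and signal therefore cannot be told apart. In the membrane arm the next gene by p was *Ndufb7*, on its intermembrane face, with 8.54, 8.93, 8.66 and 8.80 in *NdpKO;Ptch+/-* MBs, against 8.37, 8.49, 8.10 and 8.26 in *Ptch+/-* MBs. It did not pass (log2 fold change of 0.43 ± 0.10 (SE), adjusted p = 0.0799), although the groups were apart. In the matrix arm *Ndufs8*, an iron-sulfur protein, had 12.24, 12.39, 12.12 and 12.13 in *NdpKO;Ptch+/-* MBs, against 11.84, 11.76, 11.76 and 12.09 in *Ptch+/-* MBs. It did not pass either (log2 fold change of 0.36 ± 0.08 (SE), adjusted p = 0.0798). *Ndufa5*, *Ndufa9* and *Ndufa2* of the matrix arm had log2 fold changes of -0.31, -0.22 and -0.12, with adjusted p of 0.0977, 0.296 and 0.677 (limma).

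*Ndufa5* was the one member whose *NdpKO;Ptch+/-* arrays lay wholly below the *Ptch+/-* arrays, at 12.37, 12.59, 12.41 and 12.56 in *NdpKO;Ptch+/-* MBs, against 12.85, 12.93, 12.69 and 12.71 in *Ptch+/-* MBs. *Ndufa4*, once counted in complex I and now placed in complex IV, had 14.17, 14.47, 14.09 and 14.26 in *NdpKO;Ptch+/-* MBs and 14.48, 14.56, 14.39 and 14.43 in *Ptch+/-* MBs, which overlap (log2 fold change of -0.22 ± 0.07 (SE), adjusted p = 0.211). Both encode small subunits, and both went against the direction of most members.

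The medians of the other complexes in this comparison were 0.21 for complex II, 0.22 for complex III, 0.10 for complex IV and 0.25 for complex V, beside 0.22 for complex I. The 6 isoform genes under background hold down the figure for complex IV, which was 0.23 over the 11 genes above background. No gene of complexes II, III and IV passed. *Cox6b1*, a subunit on the intermembrane face, had 13.73, 14.01, 13.81 and 13.96 in *NdpKO;Ptch+/-* MBs, against 13.58, 13.63, 13.60 and 13.65 in *Ptch+/-* MBs. The groups did not overlap (log2 fold change of 0.26 ± 0.06 (SE), adjusted p = 0.0598). *Cox6a1*, the ubiquitous isoform of subunit 6a, had 13.53, 13.71, 13.60 and 13.75 in *NdpKO;Ptch+/-* MBs, against 13.37, 13.28, 13.19 and 13.54 in *Ptch+/-* MBs. Here replicate 1 of the *NdpKO;Ptch+/-* MBs fell just under the highest *Ptch+/-* array (log2 fold change of 0.30 ± 0.07 (SE), adjusted p = 0.0911). The 3 measured *Sdh* genes had log2 fold changes of 0.55 (*Sdhb*, the iron-sulfur subunit), 0.22 and 0.20 (the membrane anchors), with adjusted p from 0.189 to 0.784 (limma).

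**Figure D2:**
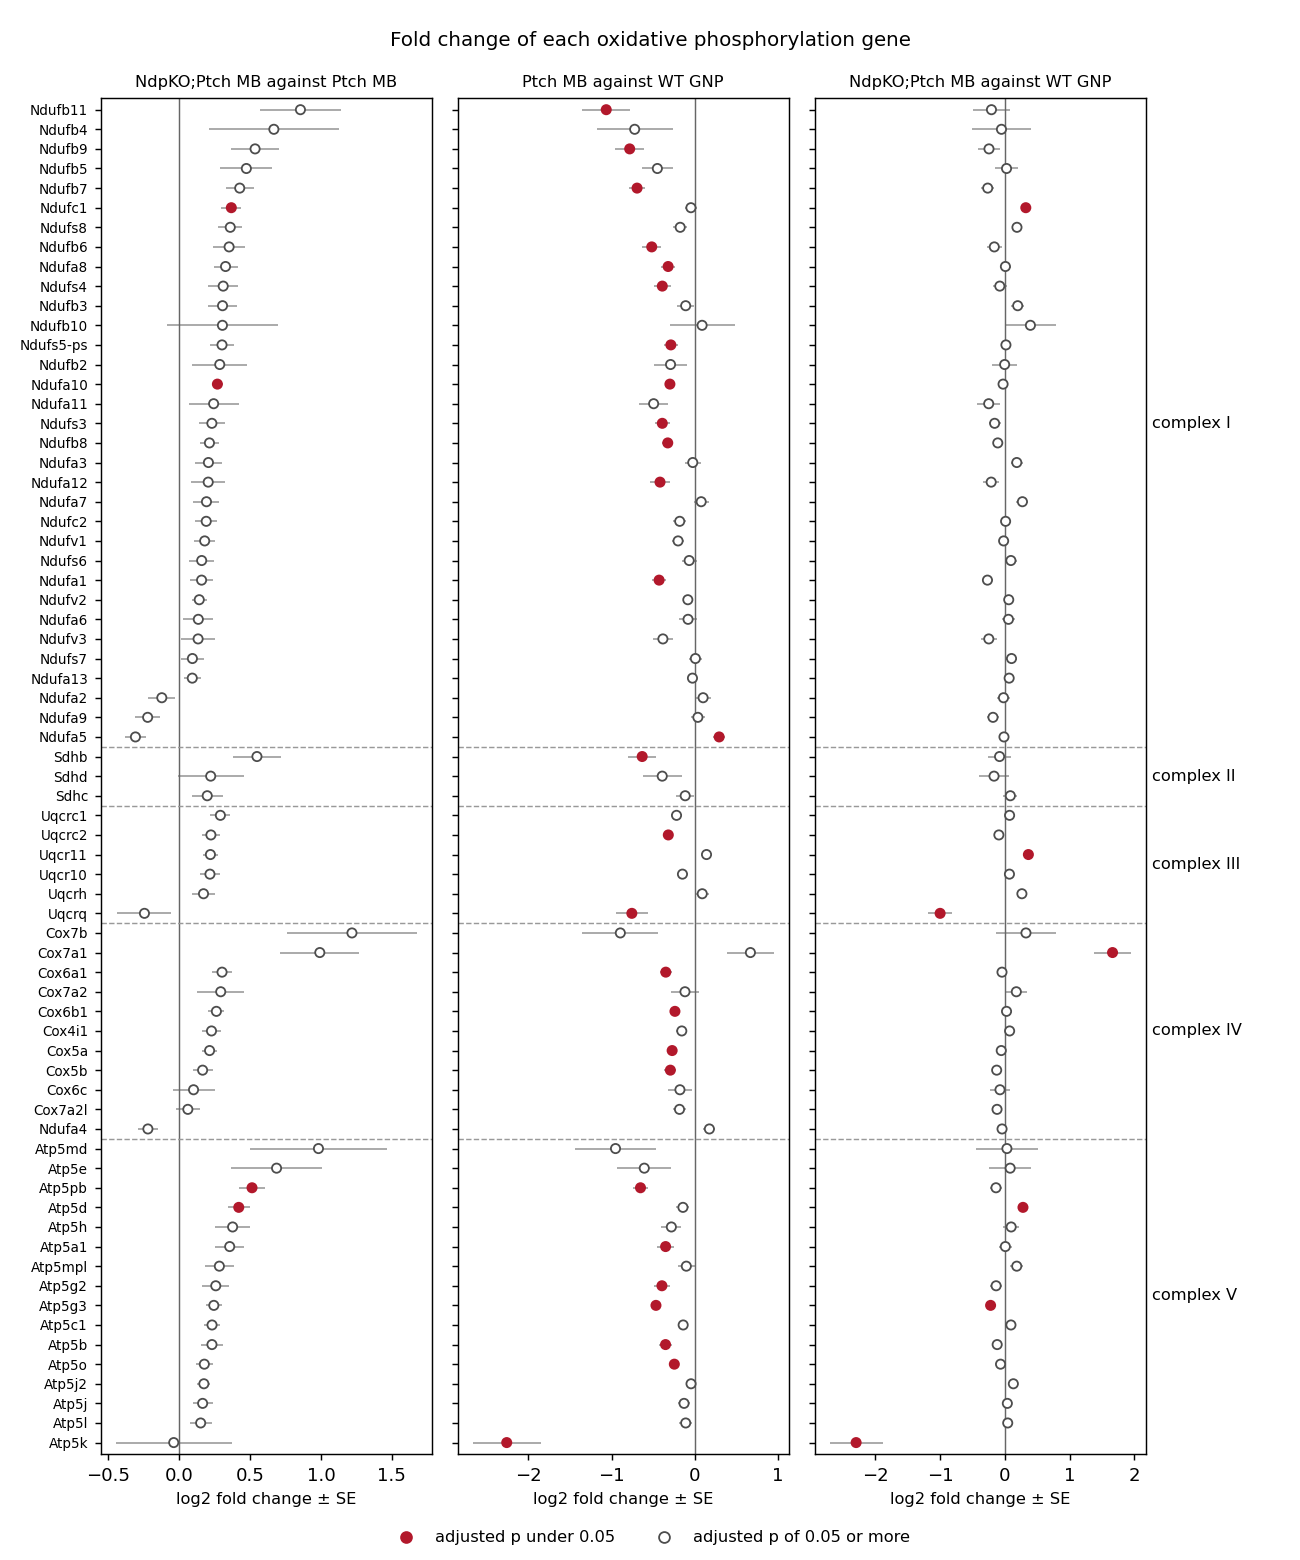
Log2 fold change ± SE of each of the 69 members above background on at least 1 array, in the 3 comparisons, ordered by complex and by the first comparison. Filled points passed an adjusted p under 0.05: 4 between the tumor genotypes, 27 in *Ptch+/-* MBs against GNPs and 7 in *NdpKO;Ptch+/-* MBs against GNPs.

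*Ptch+/-* MBs and GNPs were compared to set the tumors beside their untransformed progenitors. Here the subunit genes were mostly lower in the tumors: 26 were called lower, across all 5 complexes, and 1 was called higher, *Ndufa5*. The largest called differences were in *Atp5k* (log2 fold change -2.26), *Ndufb11* (-1.06), *Ndufb9* (-0.78), *Uqcrq* (-0.76) and *Ndufb7* (-0.69). The median over the 78 genes was -0.18 (interquartile range -0.39 to -0.02), with 61 below 0 and 17 above, against a median of 0.00 over all genes.

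The genes called lower were 33.3% of the members, where 10.9% of all genes were called lower and 10.3% higher. Of the bright members 24 of 61 were called lower (39.3%) and 1 higher (1.64%), against 17.5% and 19.9% of bright genes. The *Ptch+/-* arrays lay wholly below the GNPs in 25 bright members (41.0%) and wholly above in 3 (4.92%), against 22.5% and 23.8% of bright genes. The median of the bright members was -0.20, against 0.00 for bright genes. These values share the *Ptch+/-* arrays with the comparison between tumor genotypes, so the opposite signs of the 2 comparisons are not independent of each other.

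By complex, the calls lower were 12 of 34 genes in complex I, 1 of 4 in complex II, 2 of 7 in complex III, 4 of 17 in complex IV and 7 of 16 in complex V. The medians were -0.24, -0.25, -0.15, -0.12 and -0.31 in that order, and all 16 genes of complex V were below 0. In the membrane arm of complex I 8 of 18 genes were called lower (median -0.32), and in the matrix arm 3 of 14 (median -0.08), the twelfth being *Ndufs5-ps*, which the annotation names as a pseudogene copy and whose signal cannot be told apart from that of *Ndufs5*. Medians of members went from -0.45 at a signal of 8 to 10 to -0.13 at 14 and above. The matrix arm was the brighter one, so here too arm and signal cannot be told apart.

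In complex I, *Ndufa10* had 12.28, 12.31, 12.32 and 12.33 in *Ptch+/-* MBs, against 12.67, 12.59, 12.52 and 12.65 in GNPs. The *Ptch+/-* arrays lay below every GNP array (log2 fold change of -0.30 ± 0.04 (SE), adjusted p = 0.000612). *Ndufb7* had 8.37, 8.49, 8.10 and 8.26 in *Ptch+/-* MBs, against 9.05, 9.06, 8.98 and 8.91 in GNPs. These groups too were wholly apart (log2 fold change of -0.69 ± 0.10 (SE), adjusted p = 0.00115). *Ndufa1*, an X-linked subunit needed for the assembly of complex I, had 12.71, 12.63, 12.48 and 12.75 in *Ptch+/-* MBs, against 13.19, 13.09, 12.93 and 13.06 in GNPs. It was lower on every tumor array (log2 fold change of -0.43 ± 0.08 (SE), adjusted p = 0.00592).

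Larger and noisier differences were found in 2 dimmer genes of the same arm. *Ndufb9* had 8.27, 8.51, 8.22 and 8.79 in *Ptch+/-* MBs, against 9.40, 9.04, 9.11 and 9.37 in GNPs, and *Ndufb11*, also X-linked, had 5.20, 4.83, 4.72 and 6.09 in *Ptch+/-* MBs, against 6.59, 6.11, 6.08 and 6.32 in GNPs. The groups were apart for *Ndufb9* (log2 fold change of -0.78 ± 0.17 (SE), adjusted p = 0.0116) and overlapped for *Ndufb11* at replicate 4 of the *Ptch+/-* MBs (log2 fold change of -1.06 ± 0.29 (SE), adjusted p = 0.0305). *Ndufb11* passed in 5 of the 12 fits that left out 1 array. The other subunit genes of complex I called lower were, with their log2 fold changes, *Ndufb6* (-0.52), *Ndufa12* (-0.42), *Ndufs3* (-0.39), *Ndufs4* (-0.39), *Ndufb8* (-0.32) and *Ndufa8* (-0.32). *Ndufs3* and *Ndufs4* belong to the matrix arm and *Ndufa12* caps it, while *Ndufb6*, *Ndufb8* and *Ndufa8* lie in the membrane arm. The one gene higher in *Ptch+/-* MBs, *Ndufa5*, had 12.85, 12.93, 12.69 and 12.71 in *Ptch+/-* MBs, against 12.61, 12.47, 12.55 and 12.36 in GNPs. Its groups did not overlap (log2 fold change of 0.29 ± 0.08 (SE), adjusted p = 0.0251), and a second probe gave 0.11 with an adjusted p of 0.838 (limma).

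In complex II, *Sdhb* had 10.19, 9.85, 10.03 and 10.47 in *Ptch+/-* MBs, against 10.75, 10.85, 10.55 and 10.92 in GNPs. Its groups were apart (log2 fold change of -0.63 ± 0.17 (SE), adjusted p = 0.032), and a second bright probe was also lower at -0.83 (limma, adjusted p = 0.03). This one call of complex II passed in 6 of the 12 fits that left out 1 array. The anchors *Sdhc* and *Sdhd* did not pass, with log2 fold changes of -0.11 and -0.39.

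In complex III, the core protein *Uqcrc2* had 12.94, 13.00, 12.90 and 12.84 in *Ptch+/-* MBs, against 13.22, 13.26, 13.27 and 13.21 in GNPs. No tumor array reached the lowest GNP array (log2 fold change of -0.32 ± 0.06 (SE), adjusted p = 0.00683). The small subunit *Uqcrq* had 8.21, 7.71, 8.09 and 8.40 in *Ptch+/-* MBs, against 9.09, 9.13, 8.78 and 8.44 in GNPs. The nearest arrays of the groups were 8.40 and 8.44, with no overlap (log2 fold change of -0.76 ± 0.19 (SE), adjusted p = 0.0226), and the gene passed in 8 of the 12 fits without 1 array. The other core protein, *Uqcrc1*, had 11.45, 11.28, 11.25 and 11.49 in *Ptch+/-* MBs, against 11.61, 11.70, 11.64 and 11.41 in GNPs, and did not pass (log2 fold change of -0.22 ± 0.07 (SE), adjusted p = 0.0644).

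In complex IV the 4 calls were *Cox5a*, *Cox5b*, *Cox6a1* and *Cox6b1*, nuclear-encoded subunits around the catalytic core. *Cox5a* had 13.11, 13.11, 12.98 and 13.07 in *Ptch+/-* MBs, against 13.38, 13.46, 13.29 and 13.23 in GNPs. Each tumor array was lower than each GNP array (log2 fold change of -0.27 ± 0.05 (SE), adjusted p = 0.00723). *Cox6a1* had 13.37, 13.28, 13.19 and 13.54 in *Ptch+/-* MBs, against 13.70, 13.73, 13.66 and 13.69 in GNPs, and *Cox5b* had 13.64, 13.67, 13.60 and 13.71 in *Ptch+/-* MBs, against 13.76, 14.02, 14.05 and 13.96 in GNPs. The log2 fold changes of *Cox6a1*, *Cox5b* and *Cox6b1* were -0.35, -0.29 and -0.24, each with groups that did not overlap (limma, adjusted p from 0.00906 to 0.0192). X-linked *Cox7b* had group means of 6.64 in *NdpKO;Ptch+/-* MBs, against 5.43 in *Ptch+/-* MBs and 6.32 in GNPs and did not pass in any comparison.

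In complex V, *Atp5g3*, a gene for the c ring that turns in the membrane, had 14.63, 14.78, 14.68 and 14.51 in *Ptch+/-* MBs, against 15.20, 15.10, 15.02 and 15.14 in GNPs. This was the smallest p of any member in this comparison, with groups wholly apart (log2 fold change of -0.47 ± 0.06 (SE), adjusted p = 0.000546). *Atp5g2*, which encodes the same mature c subunit, was lower as well (-0.39, limma, adjusted p = 0.0176). *Atp5pb* had 11.59, 11.35, 11.35 and 11.38 in *Ptch+/-* MBs, against 11.99, 12.13, 12.11 and 12.05 in GNPs. Its groups were also apart (log2 fold change of -0.65 ± 0.09 (SE), adjusted p = 0.00106, 0.637-fold). The catalytic *Atp5b* and its partner *Atp5a1* were lower by like amounts (-0.35 and -0.35), and *Atp5o*, at the top of the peripheral stalk, by -0.24. These 3 were chosen after their values were seen.

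*Atp5k*, subunit e at the interface between ATP synthase dimers, had the largest difference of all members. Its signals were 4.44, 5.71, 4.18 and 4.88 in *Ptch+/-* MBs, against 6.83, 6.96, 7.27 and 7.19 in GNPs. In the *Ptch+/-* MBs 2 of the 4 arrays were under background, so the log2 fold change of -2.26 (limma, adjusted p = 0.00443) is a fitted value and not exact. The gene's other probe lay at background.

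**Figure D3:**
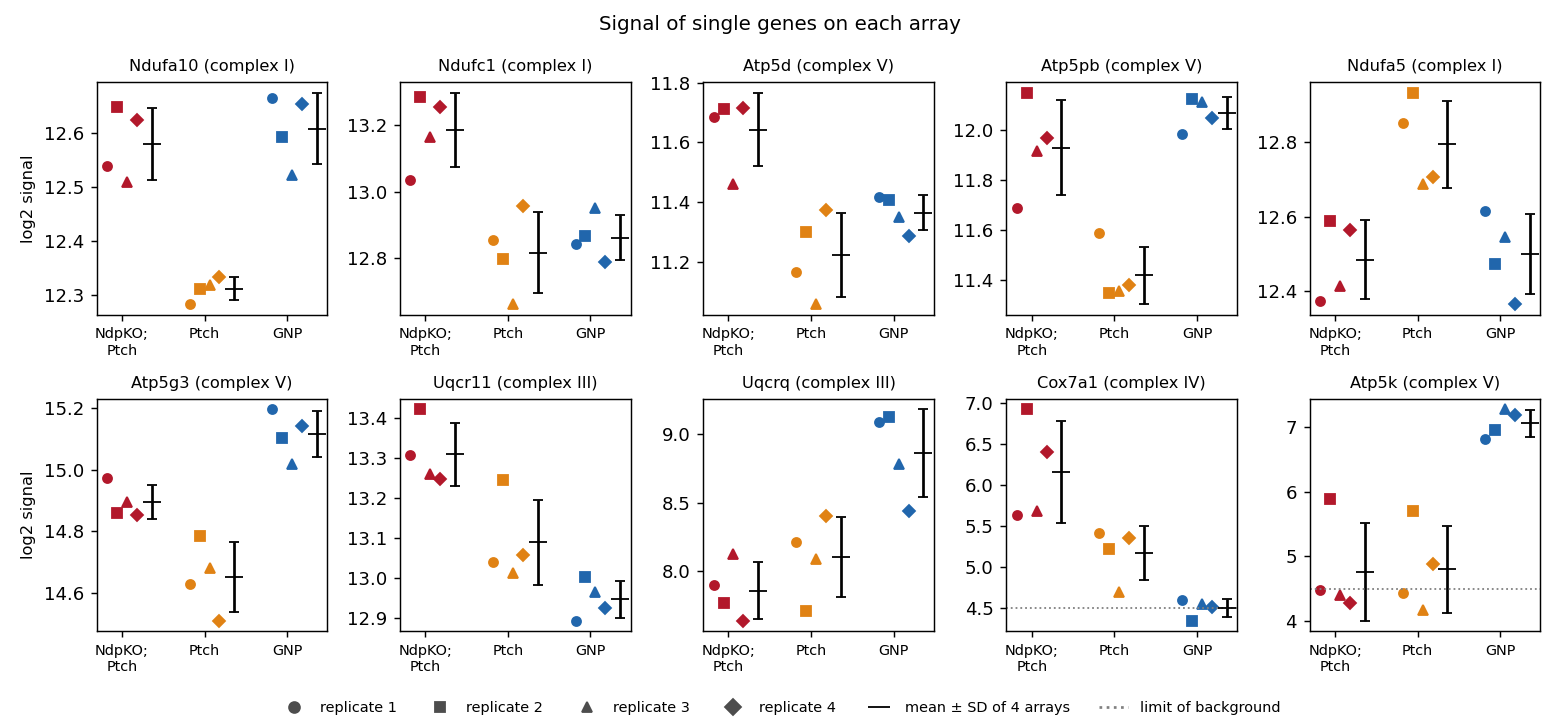
Log2 signal of 10 members on each array, in 3 groups of 4, with the mean ± SD. *Ndufa10*, *Ndufc1*, *Atp5d* and *Atp5pb* were higher in *NdpKO;Ptch+/-* than in *Ptch+/-* MBs on every array, and the dotted line marks the limit of background of 4.5.

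The remaining comparison, of *NdpKO;Ptch+/-* MBs with GNPs, gave few calls and a median near 0. There were 4 genes called higher (*Cox7a1*, *Uqcr11*, *Ndufc1* and *Atp5d*) and 3 called lower (*Atp5k*, *Uqcrq* and *Atp5g3*). The median over the 78 genes was 0.00 (interquartile range -0.11 to 0.08), with 41 above 0 and 37 below. By complex the medians were -0.01, -0.04, 0.07, 0.00 and 0.03 for complexes I to V.

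The shares called were 5.13% higher and 3.85% lower among members, where 7.69% and 7.98% of all genes were called, and 15.9% and 11.6% of bright genes. Of the 61 bright members 6 had *NdpKO;Ptch+/-* arrays wholly above the GNPs (9.84%) and 5 wholly below (8.20%), against 20.3% and 16.9% of bright genes. The array means over the 69 measured genes were -0.103, -0.103 and -0.072 on 3 *NdpKO;Ptch+/-* arrays and 0.203 on replicate 2, against -0.034 to 0.018 in GNPs. Thus 3 tumor arrays lay below all GNP arrays and 1 lay above them. Without replicate 2, 22 of the 69 genes had positive log2 fold changes and 47 negative ones, against 35 and 34 with all arrays, and the median over the 78 genes was -0.04.

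*Uqcr11*, a small subunit of complex III, had 13.31, 13.42, 13.26 and 13.25 in *NdpKO;Ptch+/-* MBs, against 13.04, 13.24, 13.01 and 13.06 in *Ptch+/-* MBs and 12.89, 13.00, 12.97 and 12.92 in GNPs. Both tumor groups lay above the GNPs on every array (log2 fold change of 0.36 ± 0.06 (SE), adjusted p = 0.00233 for *NdpKO;Ptch+/-* MBs, and 0.14 ± 0.06 (SE), adjusted p = 0.117 for *Ptch+/-* MBs). *Ndufc1* had 13.04, 13.29, 13.17 and 13.25 in *NdpKO;Ptch+/-* MBs, against 12.84, 12.87, 12.95 and 12.79 in GNPs. Its *NdpKO;Ptch+/-* arrays were above those of the other 2 groups (log2 fold change of 0.32 ± 0.07 (SE), adjusted p = 0.0151 against GNPs). *Atp5d* showed the same order, with 11.68, 11.71, 11.46 and 11.72 in *NdpKO;Ptch+/-* MBs, against 11.42, 11.41, 11.35 and 11.29 in GNPs. It passed narrowly (log2 fold change of 0.28 ± 0.08 (SE), adjusted p = 0.0447), and in 3 of the 12 fits without 1 array.

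Of the genes near the threshold, *Ndufa7* of the matrix arm had 12.36, 12.72, 12.28 and 12.38 in *NdpKO;Ptch+/-* MBs, against 12.20, 12.28, 12.08 and 12.11 in GNPs (log2 fold change of 0.27 ± 0.09 (SE), adjusted p = 0.0925). *Uqcrh*, the hinge protein of complex III, had 14.03, 14.25, 13.96 and 13.85 in *NdpKO;Ptch+/-* MBs, against 13.80, 13.74, 13.72 and 13.78 in GNPs (log2 fold change of 0.26 ± 0.08 (SE), adjusted p = 0.0736). For both, every *NdpKO;Ptch+/-* array was above every GNP array, and neither passed. Members called between the tumor genotypes included *Ndufa10* and *Atp5pb*, whose *NdpKO;Ptch+/-* arrays overlapped the GNPs. Their log2 fold changes against GNPs were -0.03 and -0.14 (limma, adjusted p = 0.709 and 0.406). In complex II, *Sdhb*, *Sdhc* and *Sdhd* had -0.08, 0.08 and -0.17, none of which passed.

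*Cox7a1*, the isoform of subunit 7a known from heart and skeletal muscle, was dim but differed in steps. Its signals were 5.63, 6.92, 5.68 and 6.40 in *NdpKO;Ptch+/-* MBs, against 5.41, 5.22, 4.69 and 5.35 in *Ptch+/-* MBs and 4.60, 4.34, 4.55 and 4.51 in GNPs. No array of one group crossed into another, and 1 GNP array was under background, so the log2 fold change of 1.66 between *NdpKO;Ptch+/-* MBs and GNPs (limma, adjusted p = 0.00399) is a fitted value. The log2 fold changes between tumor genotypes (0.99) and between *Ptch+/-* MBs and GNPs (0.67) did not pass. The ubiquitous isoform *Cox7a2* had group means of 9.39 in *NdpKO;Ptch+/-* MBs, against 9.10 in *Ptch+/-* MBs and 9.22 in GNPs. Summed signals of the muscle markers, which were highest in the same array as *Cox7a1*, were 7.48 to 8.23 in *NdpKO;Ptch+/-* MBs, against 7.47 to 7.48 in *Ptch+/-* MBs and 7.55 to 7.66 in GNPs, and their part was not tested.

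Of the genes lower than in GNPs, *Atp5k* had 4.48, 5.90, 4.40 and 4.28 in *NdpKO;Ptch+/-* MBs, of which 3 arrays were under background, against 6.83, 6.96, 7.27 and 7.19 in GNPs (limma, adjusted p = 0.0053). *Uqcrq* had 7.90, 7.77, 8.13 and 7.64 in *NdpKO;Ptch+/-* MBs, against 9.09, 9.13, 8.78 and 8.44 in GNPs. Every tumor array of this group lay below every GNP array (log2 fold change of -1.001 ± 0.19 (SE), adjusted p = 0.00744, 0.499-fold). *Atp5g3* had 14.97, 14.86, 14.89 and 14.85 in *NdpKO;Ptch+/-* MBs, between the other 2 groups and overlapping neither (log2 fold change of -0.22 ± 0.06 (SE), adjusted p = 0.0355 against GNPs). It passed in 5 of the 12 fits without 1 array, and not with dim probes left out or with the replicate block. For *Uqcrq* the 2 tumor genotypes overlapped, at a log2 fold change of -0.25 between them (limma, adjusted p = 0.677).

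**Figure D4:**
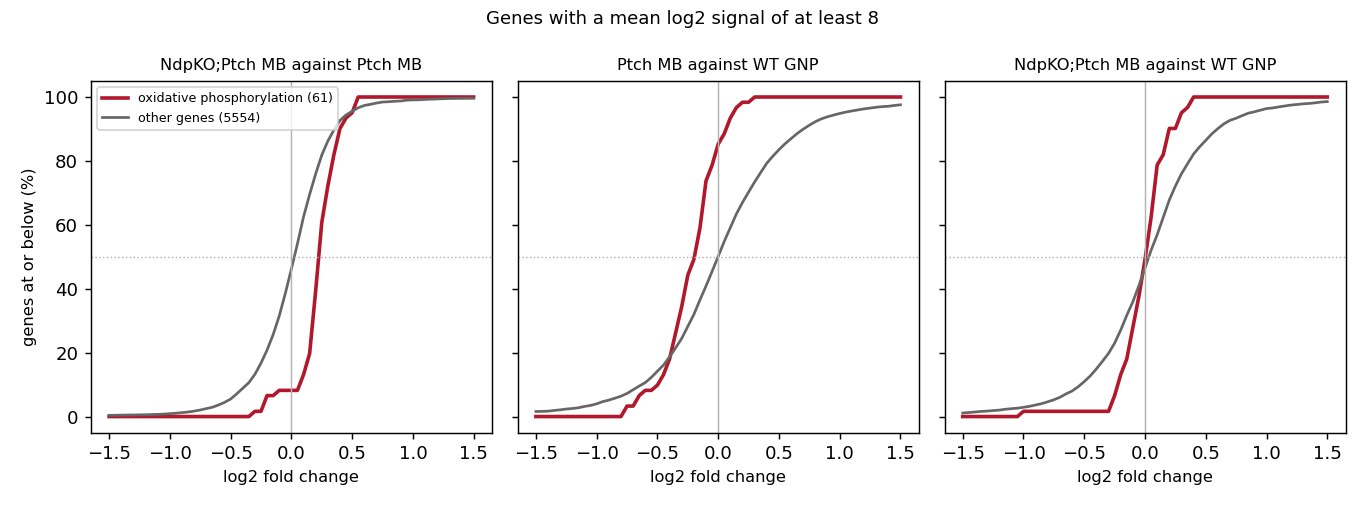
Percent of genes at or below each log2 fold change, for the 61 members and the 5554 other genes with a mean log2 signal of at least 8, in the 3 comparisons. Around its middle the member curve lies right of the other between the tumor genotypes (median 0.22) and left of it in *Ptch+/-* MBs against GNPs (median -0.20). The curves cross between 0.5 and 0.55 in the first and between -0.4 and -0.35 in the second, as fewer members had large changes. In *NdpKO;Ptch+/-* MBs against GNPs they cross near 0.

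Some cell type markers differed between the tumors and GNPs. Of all genes, 7.69% were called higher and 7.98% lower than in GNPs in *NdpKO;Ptch+/-* MBs, and 10.3% and 10.9% in *Ptch+/-* MBs. Of bright genes the shares were 15.9% and 11.6%, then 19.9% and 17.5%. Between the tumor genotypes they were 0.808% and 1.26% of all genes. Against GNPs, counts of 1 or 2 in the short granule lineage, mural and choroid plexus lists are near these shares. Of 11 genes of microglia, macrophages and leukocytes, 8 were called higher in each tumor group, with summed log2 signals of 13.2 to 13.7 in *NdpKO;Ptch+/-* MBs and 13.6 to 14.4 in *Ptch+/-* MBs, against 10.9 to 11.5 in GNPs, while the defining *Itgam* and *Ptprc* probes were under background on all arrays. Of 16 genes of mature neurons 6 were called lower in each tumor group, with sums of 14.6 to 14.7 in *NdpKO;Ptch+/-* MBs and 14.3 to 14.7 in *Ptch+/-* MBs, against 15.0 to 15.2 in GNPs, and 6 of the list, among them *Gabra6* and *Snap25*, were under background throughout. Their part in the subunit genes was not tested. Astrocyte markers had 4 of 10 genes called higher in *NdpKO;Ptch+/-* MBs and 3 higher and 1 lower in *Ptch+/-* MBs, oligodendrocyte markers 3 of 10 higher and 5 lower in each, and endothelial markers 2 of 12 lower in *NdpKO;Ptch+/-* MBs and 6 lower in *Ptch+/-* MBs. Of the 10 granule lineage genes, 1 was called higher and 1 lower in *NdpKO;Ptch+/-* MBs and 2 higher and 2 lower in *Ptch+/-* MBs. Mural cell (12 genes) and choroid plexus (5 genes) markers had 2 higher with 2 lower and 1 higher in *NdpKO;Ptch+/-* MBs, and 1 higher with 1 lower and 1 higher in *Ptch+/-* MBs. Between the tumor genotypes, the microglial and neuronal lists had no gene called in either direction by limma, the astrocyte list 1 higher, the endothelial list 1 higher and 1 lower, and the granule, oligodendrocyte, mural, choroid plexus and muscle lists none. The summed choroid plexus signals nevertheless varied widely between tumors, at 11.98, 9.98, 8.56 and 9.02 in *NdpKO;Ptch+/-* MBs, against 14.9, 12.7, 7.67 and 14.4 in *Ptch+/-* MBs, and 3 of the 4 *Ptch+/-* arrays lay above every *NdpKO;Ptch+/-* array. The exception, replicate 3, was also the array with the lowest mean of the subunit genes, and the part of this tissue was not tested. Microglial sums of replicates 2, 3 and 4 of the *Ptch+/-* MBs (14.24, 14.10 and 14.41) also lay above every *NdpKO;Ptch+/-* array, while replicate 1 (13.62) did not. The median log2 fold change between tumor genotypes was -0.34 for the microglial list and 0.40 for the endothelial list. Endothelial sums overlapped, and the part of these cells was not tested either. The proliferation list had 1 of 13 called lower with sums that overlapped (14.9 to 15.2 in both), and red blood cell sums were 10.3 to 12.7 in *NdpKO;Ptch+/-* MBs and 7.13 to 10.7 in *Ptch+/-* MBs, with 4 of the 5 red blood cell genes under background on every array.

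Other genes of mitochondrial energy metabolism were examined in 6 lists. Assembly factors build the complexes, and 45 of 49 listed were on the array. *Ndufaf1*, a factor for complex I, was the 1 gene of the list called higher in *NdpKO;Ptch+/-* than in *Ptch+/-* MBs, with 10.39, 10.59, 10.41 and 10.47 in *NdpKO;Ptch+/-* MBs against 9.87, 10.13, 10.13 and 10.20 in *Ptch+/-* MBs (log2 fold change of 0.38 ± 0.08 (SE), adjusted p = 0.0452). Of the 39 assembly factors above background 35 had positive log2 fold changes (median 0.28). Against GNPs 8 (17.8%) were called higher and 1 (2.22%) lower in *NdpKO;Ptch+/-* MBs, where 7.69% and 7.98% of all genes were, and 5 (11.1%) higher and 2 (4.44%) lower in *Ptch+/-* MBs, where 10.3% and 10.9% of all genes were. *Cox17*, the copper chaperone of complex IV, and *Lrpprc*, which stabilizes mitochondrial mRNAs, were higher in both tumor groups (0.63 and 0.62 for *NdpKO;Ptch+/-* MBs, 0.34 and 0.54 for *Ptch+/-* MBs). *Cox20*, which helps to mature a catalytic subunit of complex IV, was lower in *Ptch+/-* MBs (log2 fold change of -1.08 ± 0.15 (SE), adjusted p = 0.000927) and did not pass in *NdpKO;Ptch+/-* MBs (-0.40).

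The 76 mitochondrial ribosomal protein genes translate the subunits encoded in mitochondrial DNA. Between tumor genotypes their median was 0.23 over the 72 genes above background, with 65 positive, none called higher and 1 called lower (*Mrps35*, log2 fold change of -0.49 ± 0.10 (SE), adjusted p = 0.0463). In *NdpKO;Ptch+/-* MBs against GNPs 15 (19.7%) were called higher and 4 (5.26%) lower, against 7.69% and 7.98% of all genes. In *Ptch+/-* MBs 7 (9.21%) were higher, a share near the 10.3% of all genes, and 14 (18.4%) lower, against 10.9%. *Mrps25* and *Mrps17* were higher in both tumor groups (0.98 and 0.53 for *NdpKO;Ptch+/-* MBs, 1.30 and 0.35 for *Ptch+/-* MBs), and *Mrpl46* and *Mrpl9* were lower in both (-0.52 and -0.92, then -0.86 and -1.14).

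Among 9 other electron carriers and partners of the ATP synthase none passed between tumor genotypes (limma). *Cyc1*, the cytochrome c1 subunit of complex III, which the naming rule did not take in, had 11.44, 11.58, 11.29 and 11.47 in *NdpKO;Ptch+/-* MBs, against 11.13, 10.93, 10.83 and 11.38 in *Ptch+/-* MBs and 11.67, 11.74, 11.77 and 11.73 in GNPs. It was lower in *Ptch+/-* MBs than in GNPs (log2 fold change of -0.66 ± 0.11 (SE), adjusted p = 0.00241) and did not pass in *NdpKO;Ptch+/-* MBs (-0.28). *Etfb*, of the electron transfer flavoprotein, did not pass in any comparison. *Gpd2* and *Dhodh*, which feed electrons to ubiquinone from glycerol 3-phosphate and from pyrimidine synthesis, were higher in both tumor groups (0.58 and 0.52 for *NdpKO;Ptch+/-* MBs, 0.92 and 0.42 for *Ptch+/-* MBs).

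Of 24 genes of the tricarboxylic acid cycle and pyruvate dehydrogenase none passed between tumor genotypes (median 0.16 over the 21 above background, 16 positive). *Idh3b*, of the NAD-dependent isocitrate dehydrogenase, came nearest (log2 fold change of 0.37 ± 0.08 (SE), adjusted p = 0.0543), and was lower in *Ptch+/-* MBs than in GNPs (-0.35, limma, adjusted p = 0.0129). *Suclg1*, of succinyl-CoA ligase, was higher in both tumor groups than in GNPs (0.20 for *NdpKO;Ptch+/-* MBs and 0.24 for *Ptch+/-* MBs). The fumarase gene *Fh1* and the pyruvate dehydrogenase kinase *Pdk1* did not pass in any comparison.

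The 19 regulators of mitochondrial gene expression gave no call between tumor genotypes and a median of -0.04, with 7 of 15 above background positive. Against GNPs, *Polrmt*, the mitochondrial RNA polymerase, and *Tfb1m*, which methylates the RNA of the mitochondrial ribosome, were higher in both tumor groups (0.68 and 1.85 for *NdpKO;Ptch+/-* MBs, 0.82 and 1.67 for *Ptch+/-* MBs), and *Gabpb1*, the partner of the ETS factor GABPA, was lower in both (-1.19 and -1.44). *Pprc1*, a coactivator of the PGC-1 family, was higher in *Ptch+/-* MBs (0.89, limma, adjusted p = 0.00218). Of 18 carriers and channels of the mitochondrial membrane none passed between tumor genotypes. The uncoupling protein homolog *Slc25a27* and the dicarboxylate carrier *Slc25a10* were higher than in GNPs in both tumor groups (1.08 and 1.00 for *NdpKO;Ptch+/-* MBs, 1.42 and 1.36 for *Ptch+/-* MBs), and the creatine kinase *Ckmt1* was lower in both (-2.42 and -1.74). The brightest of 8 probes of *Nnt*, the proton-pumping transhydrogenase, was under background in all *NdpKO;Ptch+/-* MBs and GNPs. In *Ptch+/-* MBs it was between 4.44 and 4.94, with only 2 arrays above background. It was called higher in *Ptch+/-* MBs than in GNPs (log2 fold change of 0.41, limma, adjusted p = 0.0111). Between the tumor genotypes it did not pass (-0.37, limma, adjusted p = 0.096), although the groups were apart.

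**Figure D5:**
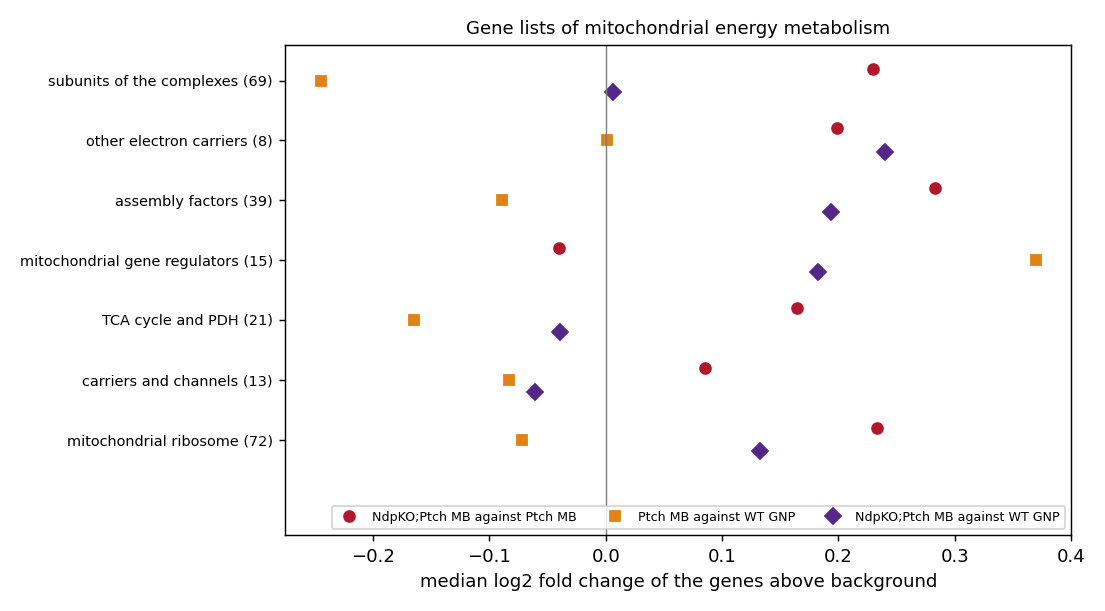
Median log2 fold change of the genes above background on at least 1 array, for the 69 subunit genes and 6 other lists, in the 3 comparisons, with the number of genes in parentheses. Between the tumor genotypes the medians of the subunits (0.23), assembly factors (0.28) and mitochondrial ribosomal proteins (0.23) lie right of 0 and that of the regulators (-0.04) left of it.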

How the data were processed

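The samples were 4 *NdpKO;Ptch+/-* MBs, 4 *Ptch+/-* MBs and 4 preparations of wild-type GNPs at postnatal day 6, grouped by their labels. The values are log2 signals as deposited, which the authors produced by neqc in limma, with background correction from negative control probes with an offset (16 by default), quantile normalization and log2 transformation. The version they used is not given in the sources used here. The offset pulls low values together, so fold changes of dim genes are understated, and the quantile step gives all arrays the same distribution, so a change shared by most genes would not be seen. Signal over background sets the precision here, with no read depth, and the number of arrays limits it. Genes were named from the platform annotation of the probes.

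Group means were fitted over all 12 arrays with limma 3.58.1 in R 4.3.3 (lmFit, contrasts and eBayes), and the Benjamini-Hochberg adjustment was made across the 45281 probes of the table, with a threshold of 0.05. The procedure was tested on simulated data for the comparison between tumor genotypes. Changes were given to probes of a mean signal of at least 8. Of 50 probes at each size of change, 1 was called at a log2 change of 0.25, 12 at 0.5, 41 at 1 and 48 at 2. Of 45081 unchanged probes 6 were called. Changes near the size of the member medians were thus seldom called in this simulation, so the lack of a call is no evidence that a gene was unchanged. The comparisons with GNPs were not simulated. There 7814 (*Ptch+/-* MBs) and 5614 (*NdpKO;Ptch+/-* MBs) probes were called, against 624 between tumor genotypes, so rates of calling may differ. A log2 signal under 4.5 was taken as background and a mean of at least 8 as bright. Members and lists were chosen with earlier results of these data known, and counts and medians over them carry no test. Genes named with array values were up to 8 members with the smallest p between tumor genotypes and, per complex, up to 3 with the smallest p and 2 with the largest called change in each comparison with GNPs. Isoforms, X-linked members, *Sdh* genes, *Ndufa4*, up to 4 genes of each other list by p, and *Nnt* were named too. Alternatives were another normalization, median centring, dim probes left out, array weights, a robust prior with an intensity trend, only the groups compared, the replicate block, the mean of all probes of a gene, other thresholds and each array left out. Chip and batch of each array were not given in the sources used here.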

Additional observations from a re-analysis of the deposited data

Results flagged for a closer look

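In 8 of 93 groups of 4 arrays 1 array lay far from the other 3, by a gap, relative to the group's range, above Dixon's 95% critical value, where chance gives about 1 in 20. The groups share arrays, and the mean over all subunit genes contains those over the complexes. They are not independent, so 8 of 93 does not measure an excess over that rate. Replicate 2 of the *NdpKO;Ptch+/-* MBs accounts for 5 of the 8. Its mean over the measured subunit genes was 0.2031, against -0.1028 to -0.0719 in the other 3, its mean over complex IV was 0.4474 against 0.0455 to 0.0990, and its mean over complex V was 0.148 against -0.2312 to -0.192, all in log2 units relative to the GNP mean. Its *Uqcrc2* signal was 13.35 against 13.07 to 13.09, and its *Atp5k* signal was 5.896 against 4.277 to 4.478, the others being under background. The other 3 were replicate 3 of the *NdpKO;Ptch+/-* MBs with 11.46 for *Atp5d* (others 11.68 to 11.72) and 6.494 for *Ndufb11* (others 5.885 to 5.962), and replicate 1 of the *Ptch+/-* MBs with 11.59 for *Atp5pb* (others 11.35 to 11.38).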

How the results depend on the processing

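The median log2 fold changes over the 78 genes moved by less than the spread between replicates with another normalization, median centring, the mean of all probes, members under background left out, array weights (the last 2 chosen after seeing the data) or 1 array left out, and the remaining settings change only the test. Leaving out 1 of 4 arrays can hardly move a median by more than that spread, so this setting is a weak check. With 1 array left out the median between tumor genotypes was 0.15 (without replicate 2 of the *NdpKO;Ptch+/-* MBs) to 0.25, against 0.22 with all arrays. It was -0.24 to -0.16 in *Ptch+/-* MBs against GNPs and -0.04 to 0.02 in *NdpKO;Ptch+/-* MBs against GNPs. This last median, near 0, changed sign without replicate 2 of the *NdpKO;Ptch+/-* MBs (-0.04), without replicate 1 of the GNPs (-0.00065) and with array weights (-0.0050), and no call of a gene named here changed direction. Counts moved more. Between tumor genotypes the 4 genes called higher became 8 with an intensity trend and robust prior, 2 with array weights, 0 when only the 2 groups compared were fitted, and 0 at an adjusted p under 0.01 or a log2 fold change above 1. With dim probes left out 5 were called, 3 of them among the 4 (not *Ndufa10*), and with the mean of all probes of a gene 4 were called, of which 2 were among the 4 (not *Atp5pb* and *Ndufc1*). Leaving out 1 array gave 1 to 7 higher and 0 to 1 lower. It was 1 (*Ndufa10*) without replicate 2 of the *NdpKO;Ptch+/-* MBs, replicate 3 of the *Ptch+/-* MBs or any GNP array, and 7 without replicate 4 of the *Ptch+/-* MBs. With the replicate block 2 were called higher, of which 1 was among the 4. Same-numbered samples did not deviate together (correlations from -0.182 to 0.111), so the numbers name samples only. In *Ptch+/-* MBs against GNPs the 26 called lower became 10 at an adjusted p under 0.01, 2 above a log2 fold change of 1 and 16 to 30 without 1 array, with 16 when replicate 3 of the *Ptch+/-* MBs and 17 when replicate 2 of the GNPs was left out, and the 1 called higher became 3 when only 2 groups were fitted, 0 with the mean of all probes, at the stricter p or at the fold limit, and 0 to 2 without 1 array. In *NdpKO;Ptch+/-* MBs against GNPs the 4 called higher became 2 at an adjusted p under 0.01, 1 at the fold limit and 3 to 4 without 1 array, and the 3 called lower 2 to 5, with 5 without replicate 2 of the *NdpKO;Ptch+/-* MBs. The cause of these moves was not tested.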
